A study of Mus musculus with 24 samples.

Results

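The alpha and beta crystallin genes of the mouse lens were followed across 24 RNA sequencing libraries. The members were the rows of the count table whose Entrez identifiers belong to Cryaa, Cryab, Cryba1, Cryba2, Cryba4, Crybb1, Crybb2 and Crybb3, and all 8 were found among 24415 genes. All 8 passed the filter on low counts in every comparison, and their counts ran from 15804 (Crybb1 in LEGSKO epithelia 3) to 4505985 (Cryaa in LEGSKO+BSO fibers 2). The libraries fall into 6 groups of 4: lens epithelia and cortical fiber cells, each from wild-type mice (WT), from LEGSKO mice, and from LEGSKO mice given buthionine sulfoximine (LEGSKO+BSO). The series calls LEGSKO lenses mildly and BSO-treated LEGSKO lenses severely short of glutathione. All groups have the C57BL/6 background, and WT and LEGSKO animals had no treatment. From general knowledge rather than from the labels, LEGSKO is a lens knockout of Gclc, a subunit of the enzyme that BSO inhibits, made with a Cre transgene under an alpha A-crystallin promoter. Ages, BSO dose and duration, and pooling are not stated in the labels. No label ties the 4 libraries of a group to different animals, so p-values measure the spread between libraries, which may be technical.

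Crystallins are the abundant soluble proteins that give the lens its refractive power. The alpha crystallins Cryaa and Cryab are small heat shock proteins that act as chaperones, and Cryab is also made in many tissues outside the lens. The beta crystallins form oligomers and divide into an acidic branch (Cryba1, Cryba2, Cryba4) and a basic branch (Crybb1, Crybb2, Crybb3), and they accumulate as epithelial cells differentiate into fibers.

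Cryaa lies on chromosome 17 (31677931 to 31681730, plus strand, GRCm38) and Cryab on chromosome 9 (50745951 to 50756636, plus strand). Cryba1 lies on chromosome 11 (77718614 to 77725293) and Cryba2 on chromosome 1 (74889934 to 74898842), both on the minus strand. The other 4 genes share chromosome 5. Cryba4 (112246492 to 112263625, minus strand) overlaps Crybb1 (112254563 to 112269585, plus strand), and Crybb2 (113058258 to 113070117) and Crybb3 (113075839 to 113082236), both on the minus strand, are separated by 5721 bases. Cryab overlaps the annotated spans of Hspb2, another small heat shock protein gene, and of 2310030G06Rik. The strand setting of the counting is not stated in the labels, so reads over these overlaps cannot be told apart by strand.

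Members that move together can be compared at their starts. RefSeq windows of GRCm38.p6 matched 7 of the 8 genes. The last 160 bases before the start in the table are shown 5′ to 3′ in the direction of the gene for 5 windows that hold a motif, from both alpha and beta genes, and for Crybb2, the only 1 of the 7 that holds neither, with capitals marking TGCTGA (the core half-site bound by Maf factors, or TCAGCA where it lies on the opposite strand) and TATAAA (the TATA box).
Cryaa chr17:31677771-31677930: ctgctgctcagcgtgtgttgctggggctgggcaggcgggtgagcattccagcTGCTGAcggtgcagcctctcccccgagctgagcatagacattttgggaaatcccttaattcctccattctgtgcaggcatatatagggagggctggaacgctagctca
Cryba1 chr11:77725294-77725453: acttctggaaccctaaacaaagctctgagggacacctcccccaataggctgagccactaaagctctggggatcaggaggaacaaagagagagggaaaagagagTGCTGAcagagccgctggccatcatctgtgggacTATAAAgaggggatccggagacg
Cryba4 chr5:112252519-112252678: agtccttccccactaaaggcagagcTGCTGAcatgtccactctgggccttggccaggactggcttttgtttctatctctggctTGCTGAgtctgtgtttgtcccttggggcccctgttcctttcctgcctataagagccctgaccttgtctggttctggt
Crybb1 chr5:112255660-112255819: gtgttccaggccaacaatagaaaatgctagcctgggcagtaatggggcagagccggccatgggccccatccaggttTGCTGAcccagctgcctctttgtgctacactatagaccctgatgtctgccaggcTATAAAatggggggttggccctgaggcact
Crybb2 chr5:113070118-113070277: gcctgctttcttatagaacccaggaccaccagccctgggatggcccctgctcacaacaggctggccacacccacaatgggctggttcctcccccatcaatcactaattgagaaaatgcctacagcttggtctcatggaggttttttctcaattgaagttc
Crybb3 chr5:113081585-113081744: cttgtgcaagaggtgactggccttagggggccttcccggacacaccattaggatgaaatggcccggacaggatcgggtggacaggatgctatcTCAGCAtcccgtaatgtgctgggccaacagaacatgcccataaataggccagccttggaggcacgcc
The annotated spans of Cryba4, Crybb1 and Crybb3, and of Cryba2 (window not shown), reach past the starts used, so other starts exist. TGCTGA was found on either strand within 250 bases before the start in 6 of 7 member windows, all but that of Crybb2, against 16.1% of all 32851 RefSeq windows. TATAAA was found in 2 of 7, against 12.4% of all windows. The Maf half-site began 108 bases before the start in Cryaa, 57 in Cryba1 and 84 in Crybb1. In Cryba4 it was found 3 times, beginning 182 (outside the bases shown), 135 and 77 bases before the start, and the motifs do not overlap each other. It lay on the opposite strand in Crybb3, from 67 to 62 bases before the start, and in Cryba2, from 149 to 144. The TATA box ended 18 bases before the start in Cryba1 and 25 in Crybb1. These are letter matches, not measured binding.

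**Figure D1:**
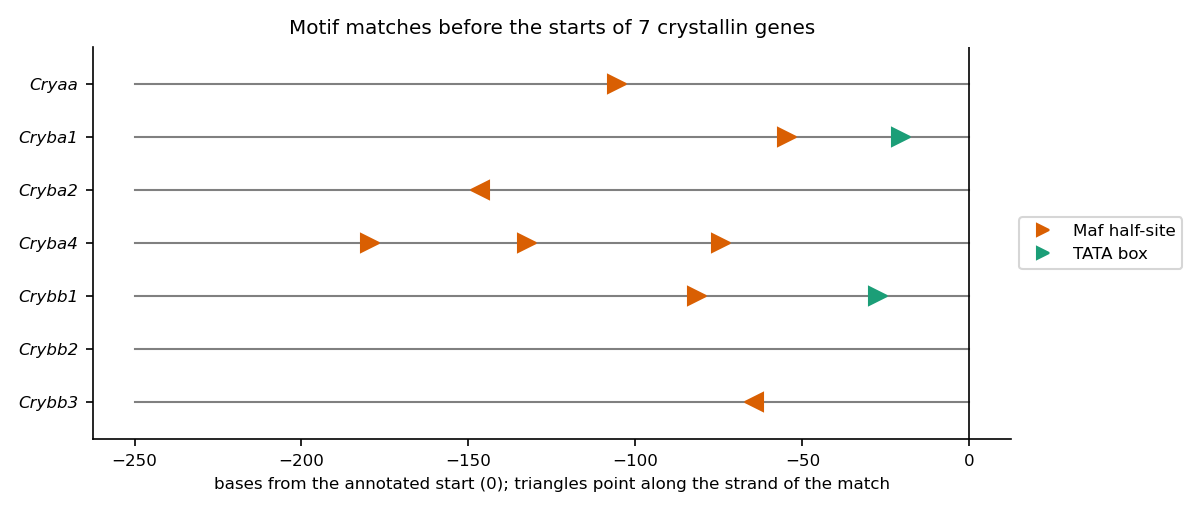
Positions of the 2 motifs in the 250 bases before the annotated starts of 7 genes (x axis, bases from the start; each grey line is 1 gene, triangles point along the strand of the match). The Maf half-site appears in 6 of the 7 windows and the TATA box in Cryba1 and Crybb1.

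Gclc had 66.6 to 95.9 CPM (counts scaled to library size) in WT epithelia, 44.6 to 70.5 in LEGSKO and 63.6 to 108 in LEGSKO+BSO epithelia, and 70.4 to 135, 66.9 to 81.2 and 69.3 to 79.3 in the 3 fiber groups. The groups overlapped and no comparison passed the test (lowest adjusted p by edgeR = 0.105). A gene-level count also covers exons outside a deletion, and the labels name no deleted exon, so these counts do not check the genotypes, which are used as labelled. Total counts were 19.3 to 33.9 M (mega) in epithelia and 22.4 to 46.6 M in fibers, with LEGSKO+BSO fibers the deepest at 39.0 to 46.6 M. One library stood apart: all crystallins together held 50.1% of counts in WT fibers 1 and 27.6% to 29.6% in WT fibers 2 to 4. Its TMM scaling factor was 0.65, and its lens fiber markers summed to 86550 CPM where the other 3 had 53248 to 55346. The part of those markers in the crystallin levels was not tested. Results that rest on this library are given with and without it. Lens epithelium markers (7 genes) summed to 3905 to 4661 CPM in epithelia and 1583 to 1943 in fibers, and lens fiber markers (8 genes) to 5787 to 9256 in epithelia and 46660 to 86550 in fibers. Within the epithelium list Sfrp1 was higher in WT fibers under TMM, against its list. It had 1737 ± 113 CPM there (SD, n = 4), most of the summed epithelium markers of WT fibers. In WT, 7 genes of the fiber list were called higher in fibers and 1 lower under TMM, where 37.0% and 39.4% of all genes were. The same split held in LEGSKO and LEGSKO+BSO, so 1 gene went against the fiber list too. Corneal and conjunctival markers (6 genes, 3 tested) summed to 837 to 2085 CPM for WT epithelia. They summed to 2244 to 3179 for LEGSKO and 2939 to 4051 for LEGSKO+BSO. None of the 6 was at 0 throughout an epithelial group, but only 3 passed the filter on low counts. In fibers the 6 summed to at most 68.1 CPM, and Krt12, Krt5 and Krt14 were at 0 in the WT and LEGSKO libraries. The corneal sum therefore moves with condition in epithelia. With 3 of the 6 too low to test, it does not show that the list as a whole moves. The part of these markers in the epithelial results below was not tested. Pigmented iris and ciliary body markers (6 genes, 5 tested) summed to 24.3 to 34 CPM for WT epithelia, 21 to 27.3 for LEGSKO and 33.5 to 37.9 for LEGSKO+BSO, so that LEGSKO and LEGSKO+BSO did not overlap. Of the 5, Dct, a melanin synthesis gene, named after its values were seen, was called higher in LEGSKO+BSO than in LEGSKO (6.1-fold, adjusted p = 0.0165 by edgeR), in a comparison where 0 of all genes were called without LEGSKO epithelia 2. The part of these markers in the epithelial results was not tested either. Retinal markers (10 genes) summed to 87.3 to 438 CPM for WT epithelia, 37.3 to 342 for LEGSKO and 32.4 to 141 for LEGSKO+BSO. These ranges overlapped, and 0 of the 10 genes were called in any epithelial comparison. The part of the retinal markers in the epithelial results was not tested. Markers of immune cells, blood and vessels summed to at most 21.3 CPM in epithelia. In these bulk samples fewer cells of a type and less RNA per cell cannot be told apart.

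Together the 8 genes held 11.6% ± 1.41 of the WT epithelial counts (SD, n = 4). LEGSKO epithelia gave 9.78% ± 2.40 and LEGSKO+BSO epithelia 8.87% ± 2.47. The fiber groups held 25.6% ± 4.52 (WT), 24.8% ± 1.60 (LEGSKO) and 23.7% ± 1.28 (LEGSKO+BSO). WT fibers 1 held 32.3% and the other WT fiber libraries 22.9% to 23.6%.

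Levels between genes were compared as CPM per kilobase of median transcript length, with libraries scaled by TMM within a tissue. In WT epithelia Cryaa stood highest at 49479 ± 5348, followed by Crybb2 at 25601 ± 2396 and Cryab at 18315 ± 3477 (SD, n = 4). Crybb2 and Cryab overlapped between libraries, and Cryaa did not overlap either. Cryba1 (10535 ± 3436) and Cryba2 (6767 ± 692) overlapped each other, and below them Cryba4 (2768 ± 704), Crybb3 (2190 ± 806) and Crybb1 (1847 ± 457) formed an overlapping trio. In LEGSKO+BSO fibers, the deepest group, the order was Crybb2 (83510 ± 4461), Cryaa (63790 ± 6617), Cryba1 (28024 ± 2326), Cryba2 (19950 ± 1132), Cryba4 (17232 ± 1552), Cryab (11232 ± 1067), Crybb3 (10390 ± 717) and Crybb1 (8919 ± 528). There only Cryba2 with Cryba4 and Cryab with Crybb3 overlapped among neighbours. LEGSKO fibers had the same transcript order, as did WT fibers with all 4 libraries, where WT fibers 1 makes most neighbours overlap. The last places swapped in WT without WT fibers 1, with Crybb1 at 8814 ± 369 above Crybb3 at 7807 ± 523 (SD, n = 3) and no overlap between them. Per kilobase of coding sequence Cryaa came first in fibers too (137344 against 110668 for Crybb2 in LEGSKO+BSO), so the first place in fibers depends on the length used.

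**Figure D2:**
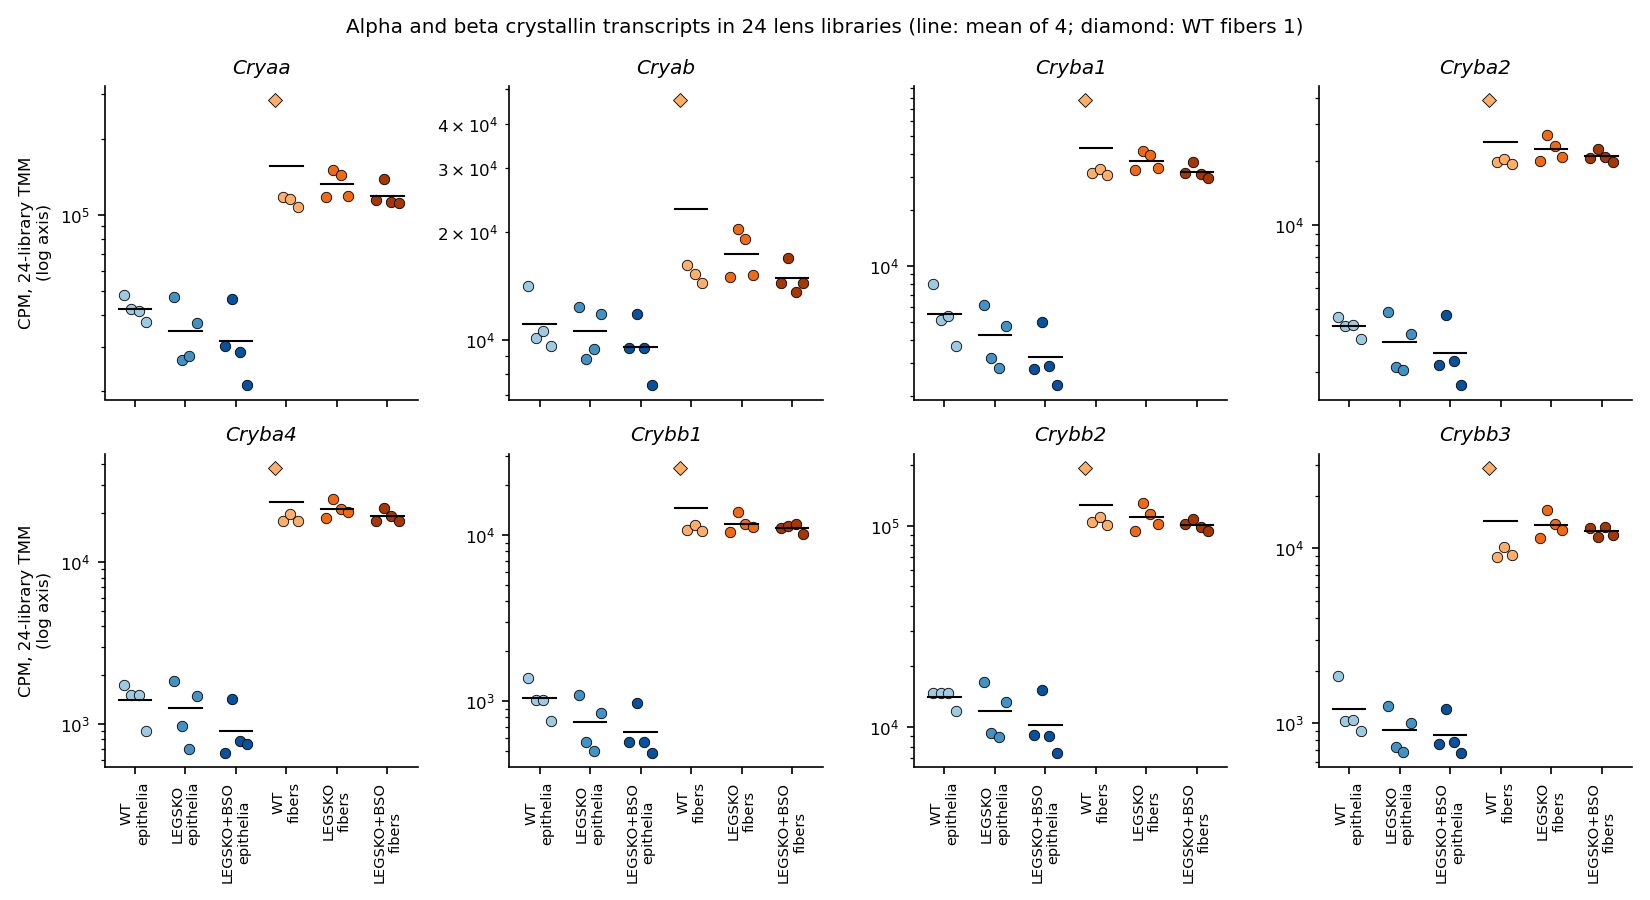
CPM of each of the 8 genes (log axis) in every library, scaled over all 24 libraries; points are libraries, lines are means of 4, and the diamond is WT fibers 1. Under this TMM scaling fibers sit above epithelia for every gene (for Cryab this turns on plain totals), WT fibers 1 is the highest fiber point for all 8, and Cryab has the smallest gap between the tissues.

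The question the series poses is how the lens responds to glutathione shortage within each tissue. No member passed the test in any of the 6 within-tissue comparisons (edgeR's quasi-likelihood test, Benjamini-Hochberg adjusted over all genes), and DESeq2 called 0 in each as well. In LEGSKO against WT epithelia 0 of 8 were called, where 0.842% of all genes were, and the lowest adjusted p by edgeR was 0.393 (Crybb1). In LEGSKO+BSO against WT epithelia 0 of 8 were called against 1.17% of all genes (lowest adjusted p = 0.197, Cryba1). In LEGSKO+BSO against LEGSKO epithelia the count was 0 against 0.722% (lowest adjusted p = 0.406, Cryba4). For LEGSKO against WT fibers it was 0 against 1.64% (0.552, Cryab), for LEGSKO+BSO against WT fibers 0 against 5.52% (0.232, Cryab), and for LEGSKO+BSO against LEGSKO fibers 0 against 0.0298% (0.818, Cryba1). At an unadjusted p below 0.05, 4 members had lower fitted levels in LEGSKO+BSO than in WT epithelia, where 7.31% of all genes did. They were Cryba1, Cryba4, Crybb1 and Crybb2. In LEGSKO+BSO against WT fibers 1 member (Cryab) did, where 10.9% of all genes did. The other 4 comparisons had 0 such members, against 6.83% and 10.7% of all genes in epithelia (LEGSKO against WT, LEGSKO+BSO against LEGSKO) and 7.50% and 4.85% in fibers.

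All 8 fitted log2 fold changes were below 0 in each of the 6 comparisons. Their medians in epithelia were -0.29 for LEGSKO against WT, -0.48 for LEGSKO+BSO against WT and -0.16 for LEGSKO+BSO against LEGSKO, and in fibers -0.22, -0.37 and -0.13. The median over all genes lay between -0.011 and 0.001. The comparisons of a tissue share libraries, and the 8 genes rise and fall together between libraries, so these signs are not separate observations. No member's groups separated in any of the 6. Over all genes, groups did not overlap for 8.45%, 7.63% and 12.3% in epithelia and 8.68%, 14.5% and 8.99% in fibers, in the same order.

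Cryaa, the alpha A chaperone, had CPM of 71924, 62119, 60775 and 55741 in WT epithelia 1 to 4. In LEGSKO epithelia it had 68874, 38721, 40776 and 53874, and in LEGSKO+BSO epithelia 44610, 68712, 42619 and 31095. LEGSKO 1 and LEGSKO+BSO 2 lay among the WT values and the other treated or knockout libraries below all 4 of them, so the groups overlapped through 1 library each. The log2 fold change against WT was -0.31 (95% interval -0.76 to 0.14) in LEGSKO and -0.42 (-0.87 to 0.03) in LEGSKO+BSO, which leaves falls of up to 1.69-fold and 1.83-fold within the intervals. In fibers the WT libraries gave 193017, 79684, 78081 and 72932, LEGSKO gave 79932, 100994, 97754 and 80251, and LEGSKO+BSO gave 77514, 93269, 76644 and 75603. WT fibers 1 alone was above every other fiber library. With it the log2 fold change for LEGSKO was -0.24, and for LEGSKO+BSO -0.39. Without it these were 0.21 ± 0.10 SE (adjusted p = 0.262 by edgeR) and 0.07 ± 0.10 SE (0.749).

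Cryab, the alpha B chaperone, had the smallest fitted differences from WT epithelia of the 8. It had CPM of 21015, 14859, 15530 and 14237 in WT epithelia, 17965, 12886, 13969 and 17060 for LEGSKO, and 14108, 17385, 14211 and 11001 for LEGSKO+BSO. The 3 groups overlapped. The log2 fold change against WT was -0.085 (95% interval -0.41 to 0.24) in LEGSKO and -0.21 (-0.54 to 0.11) in LEGSKO+BSO, and without WT epithelia 1 the LEGSKO value was 0.051. In fibers the WT libraries gave 31567, 10971, 10309 and 9736, LEGSKO gave 10179, 13685, 12900 and 10295, and LEGSKO+BSO gave 9812, 11443, 9231 and 9770. Again only WT fibers 1 stood clear. The log2 fold change in LEGSKO+BSO was -0.64 (95% interval -1.27 to -0.001, adjusted p = 0.232 by edgeR) with that library and -0.04 (-0.26 to 0.18) without it.

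Among the acidic beta crystallins, Cryba1 had the largest fitted difference of any member between LEGSKO+BSO and WT epithelia. Its CPM was 11888, 7540, 7852 and 5504 in WT epithelia, 8992, 4676, 4166 and 6877 for LEGSKO, and 4159, 7340, 4326 and 3363 for LEGSKO+BSO. WT 4 fell inside the LEGSKO+BSO range and LEGSKO+BSO 2 inside the WT range. The log2 fold change in LEGSKO+BSO was -0.77 ± 0.28 SE (95% interval -1.36 to -0.18, unadjusted p = 0.0137 and adjusted p = 0.197 by edgeR), from 8196 ± 2673 to 4797 ± 1747 CPM. Cryba4 had -0.64 ± 0.29 SE (adjusted p = 0.318), with 2087 ± 531 CPM for WT, 1821 ± 737 for LEGSKO and 1341 ± 518 for LEGSKO+BSO. Cryba2 had -0.42 ± 0.22 SE (adjusted p = 0.402), with 4872 ± 498, 4038 ± 1229 and 3655 ± 1289 CPM. In fibers, where WT fibers 1 again exceeded all other libraries, the log2 fold changes of the 3 genes ran from -0.24 to -0.12 in LEGSKO and from -0.43 to -0.23 in LEGSKO+BSO. Without WT fibers 1 they ran from 0.18 to 0.20 and from 0.01 to 0.08, and no adjusted p was below 0.252.

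Among the basic beta crystallins, Crybb2 had the highest level per kilobase. Its CPM was 22129, 21685, 21696 and 17952 in WT epithelia, 24461, 13741, 13168 and 19207 for LEGSKO, and 13530, 22686, 13522 and 10955 for LEGSKO+BSO. LEGSKO 1 and LEGSKO+BSO 2 were above every WT library, so the groups overlapped. The log2 fold change in LEGSKO+BSO was -0.46 ± 0.21 SE (adjusted p = 0.332 by edgeR). Crybb1 had epithelial levels of 1547 ± 383 CPM for WT, 1100 ± 383 for LEGSKO and 968 ± 329 for LEGSKO+BSO, with log2 fold changes of -0.49 ± 0.25 SE (adjusted p = 0.393) and -0.68 ± 0.25 SE (0.211). In fibers Crybb2 had 131078, 70568, 74899 and 68431 for WT, 64000, 87433, 77482 and 69072 for LEGSKO, and 68855, 72636, 66737 and 64017 for LEGSKO+BSO. Apart from WT fibers 1 every library lay between 64000 and 87433. Without that library its log2 fold change was 0.06 ± 0.10 SE in LEGSKO and -0.07 ± 0.10 SE in LEGSKO+BSO.

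Crybb3 was the member whose result in fibers depended most on WT fibers 1. Its CPM was 19525, 6080, 6860 and 6171 in WT fibers, 7780, 11126, 9365 and 8607 for LEGSKO fibers, and 8907, 7865, 9045 and 8096 for LEGSKO+BSO fibers. WT fibers 1 was the highest of the 12 libraries and WT fibers 2 to 4 were the lowest 3. With all libraries the log2 fold change was -0.07 ± 0.30 SE in LEGSKO (adjusted p = 0.944 by edgeR) and -0.19 ± 0.30 SE in LEGSKO+BSO (0.756). Without WT fibers 1 Crybb3 rose 1.44-fold in LEGSKO (log2 0.53 ± 0.10 SE, adjusted p = 0.0067), the only member called, where 2.61% of all genes were called higher. It also rose 1.33-fold in LEGSKO+BSO (log2 0.41 ± 0.10 SE, adjusted p = 0.0204), again 1 of 8 members, where 4.65% of all genes were called higher. In that setting all 8 log2 fold changes were above 0 in LEGSKO (median 0.18) and 6 of 8 in LEGSKO+BSO (median 0.03). Both comparisons share the same WT libraries. In epithelia Crybb3 had 2765, 1518, 1529 and 1336 CPM in WT, 1827, 1073, 1022 and 1450 for LEGSKO, and 1128, 1780, 1171 and 996 for LEGSKO+BSO, with overlapping groups and log2 fold changes of -0.41 ± 0.24 SE (adjusted p = 0.464) and -0.49 ± 0.24 SE (0.356).

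**Figure D3:**
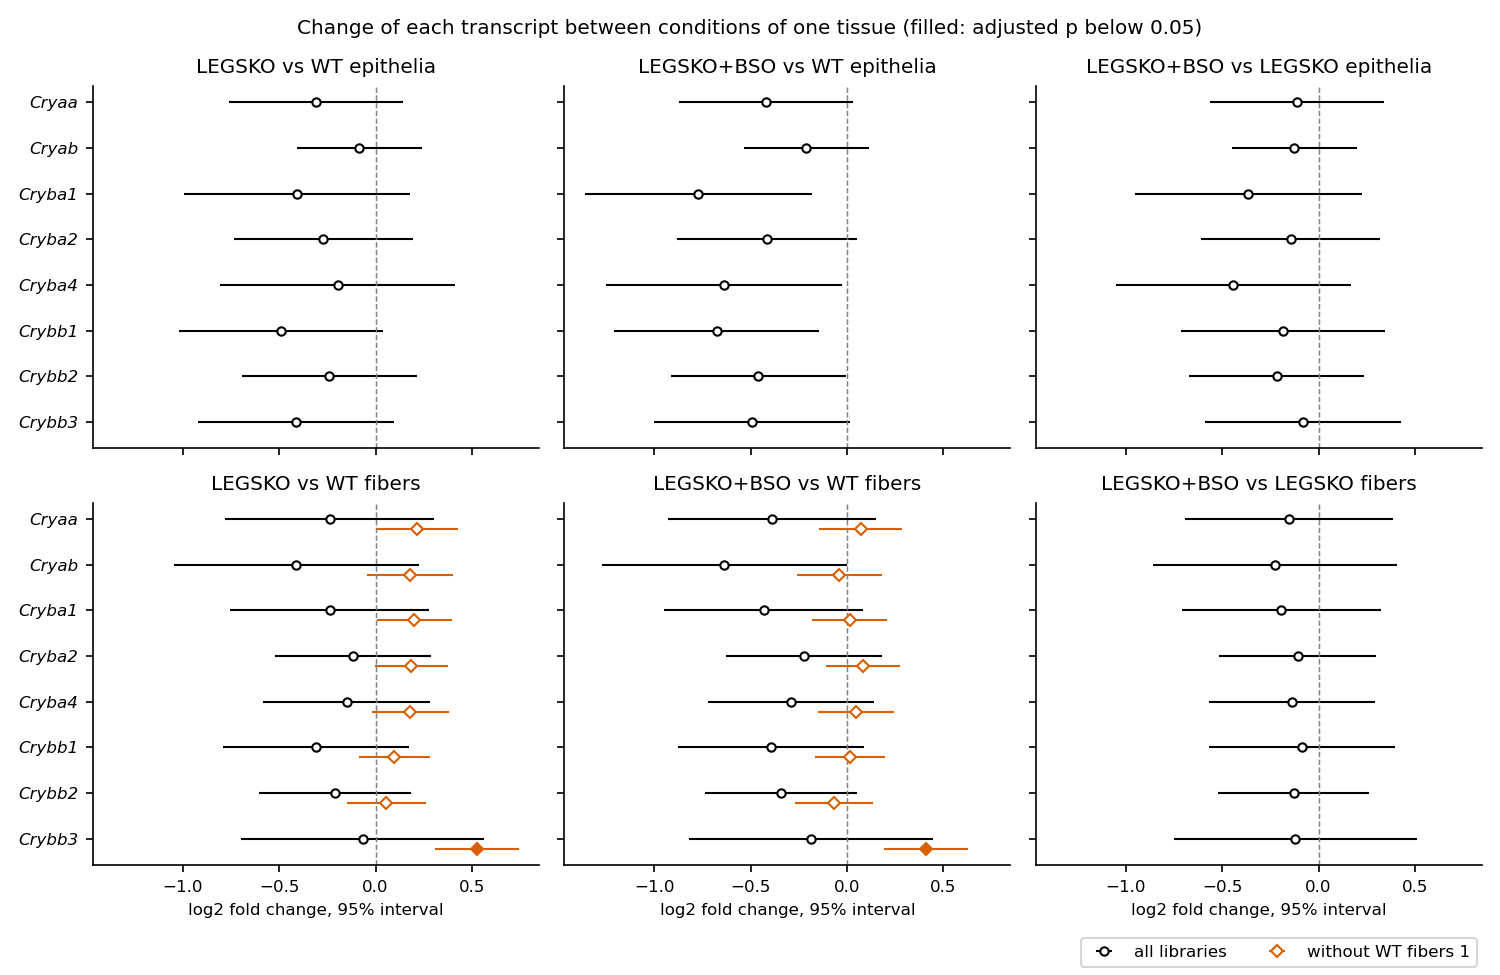
Fitted log2 fold change with its 95% interval (x axis) for each gene (y axis) in the 6 within-tissue comparisons; black circles use all libraries, orange diamonds leave out WT fibers 1, and filled symbols have an adjusted p below 0.05. All black points lie left of 0 and none is filled; without WT fibers 1, Crybb3 alone is filled, at 0.53 and 0.41.

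The make-up of the 8 genes does not depend on library scaling. Each member's share of their summed counts was compared between conditions with an exact two-sided permutation test (70 regroupings, smallest possible p = 0.0286), and adjusted over 48 such tests the lowest p was 0.411. With that smallest p, adjusted values over 48 tests could hardly pass 0.05, so the shares are given as values. Cryab took 15%, 12.8%, 13.4% and 14.0% of the sum in WT epithelia, 13.6%, 16.9%, 17.9% and 16.1% for LEGSKO, and 17.1%, 13.7%, 17.5% and 17.8% for LEGSKO+BSO. In 3 of 4 libraries of each altered group the share was above all WT libraries, and the exceptions, LEGSKO 1 and LEGSKO+BSO 2, were the ones with the highest level of all 8 genes in their group (exact permutation p = 0.0857 for both, adjusted 0.411). Crybb3 took 3.92%, 2.74%, 3.01% and 2.93% in WT fibers, 3.58%, 3.90%, 3.57% and 3.80% for LEGSKO fibers, and 4.04%, 3.18%, 4.14% and 3.86% for LEGSKO+BSO fibers. As with its level, WT fibers 2 to 4 were the lowest 3 of the 12 and WT fibers 1 lay among the others (exact permutation p = 0.143 and 0.0857, adjusted 0.457 and 0.411). Only Cryba1 between LEGSKO+BSO (9.73% ± 0.128) and LEGSKO fibers (10.1% ± 0.168; SD, n = 4) reached the smallest possible exact p, with an adjusted value of 0.411.

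**Figure D4:**
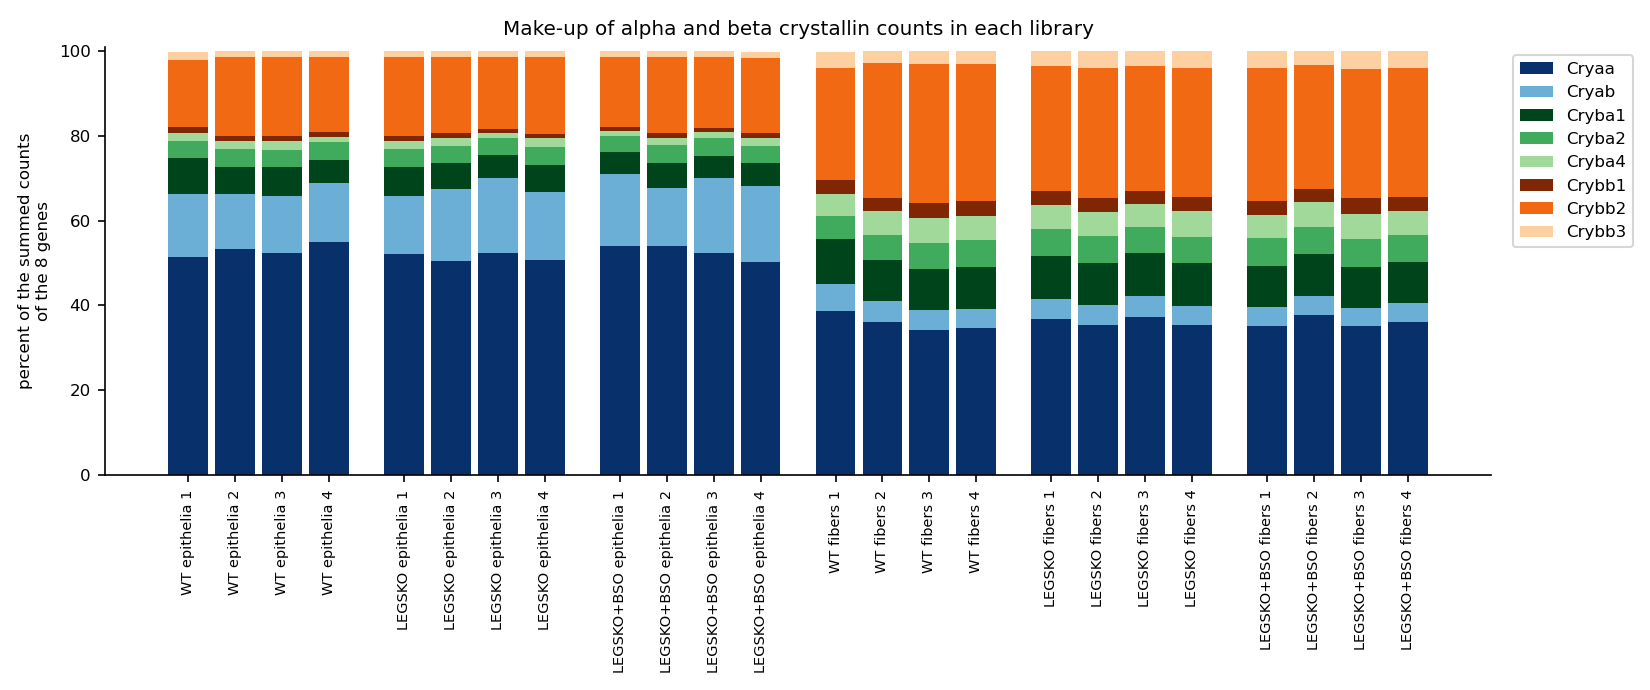
Percent of the summed counts of the 8 genes (y axis) taken by each gene in each of the 24 libraries (x axis, grouped by condition and tissue). The 6 beta genes take 28.9% to 34.2% in epithelia and 54.9% to 61.2% in fibers.

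The series compares only samples of one tissue, and fibers were set against epithelia here as a description of differentiation. All 8 genes were higher in fibers in each condition under TMM scaling, where 37.0% (WT), 36.8% (LEGSKO) and 38.1% (LEGSKO+BSO) of all genes were called higher. The fold in WT was 3.69 for Cryaa, 2.08 for Cryab, 7.82 for Cryba1, 7.51 for Cryba2, 16.6 for Cryba4, 13.9 for Crybb1, 9.01 for Crybb2 and 11.8 for Crybb3 (adjusted p by edgeR from 1.09e-11 to 0.000884). Thus both alpha genes had smaller folds than every beta gene. Without WT fibers 1 the folds were 2.64, 1.35, 5.66, 5.97, 12.9, 10.3, 7.34 and 7.66 in the same order, and all 8 were called, where 35.8% of all genes were called higher. In LEGSKO the folds ran from 1.64 (Cryab) to 16.9 (Cryba4), and in LEGSKO+BSO from 1.55 (Cryab) to 21.2 (Cryba4). No group of epithelia overlapped its fiber group for any member, where 33.3% (WT), 34.9% (LEGSKO) and 37.4% (LEGSKO+BSO) of all genes were higher without overlap.

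The tissue comparison depends on the scaling. The median of all genes was -0.086 on the log2 scale under TMM in WT, -0.147 under DESeq2's size factors, -0.853 with totals that leave out crystallins and -1.25 with plain totals, and higher genes made up 48.4%, 45.9%, 23.1% and 14.7% of those called. The 7 members other than Cryab kept a higher fitted level in fibers under all 4. Cryab flips: in WT its log2 fold change was 1.06 under TMM, 1.00 under size factors, 0.24 without crystallins (adjusted p = 0.348 by edgeR) and -0.27 on plain totals (0.131). On plain totals it was lower in LEGSKO fibers (-0.40, adjusted p = 0.0318) and LEGSKO+BSO fibers (-0.42, 0.0221). Relative to the median of all genes its WT change was 1.14 under TMM and 1.09 with totals that leave out crystallins. DESeq2 called 7 of 8 members in LEGSKO and in LEGSKO+BSO, all but Cryab (adjusted p = 0.0579 and 0.103). The higher Cryab call in LEGSKO was also lost without LEGSKO epithelia 2 (adjusted p = 0.0514 by edgeR). In LEGSKO+BSO it was made under only 6 of 14 alternatives counting the lower call on plain totals, and was lost under size factors (0.0533) and without LEGSKO+BSO epithelia 1, 3 or 4 or LEGSKO+BSO fibers 2 or 4 (0.0528 to 0.0912). The other 7 members kept their calls under every alternative in all 3 conditions.

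**Figure D5:**
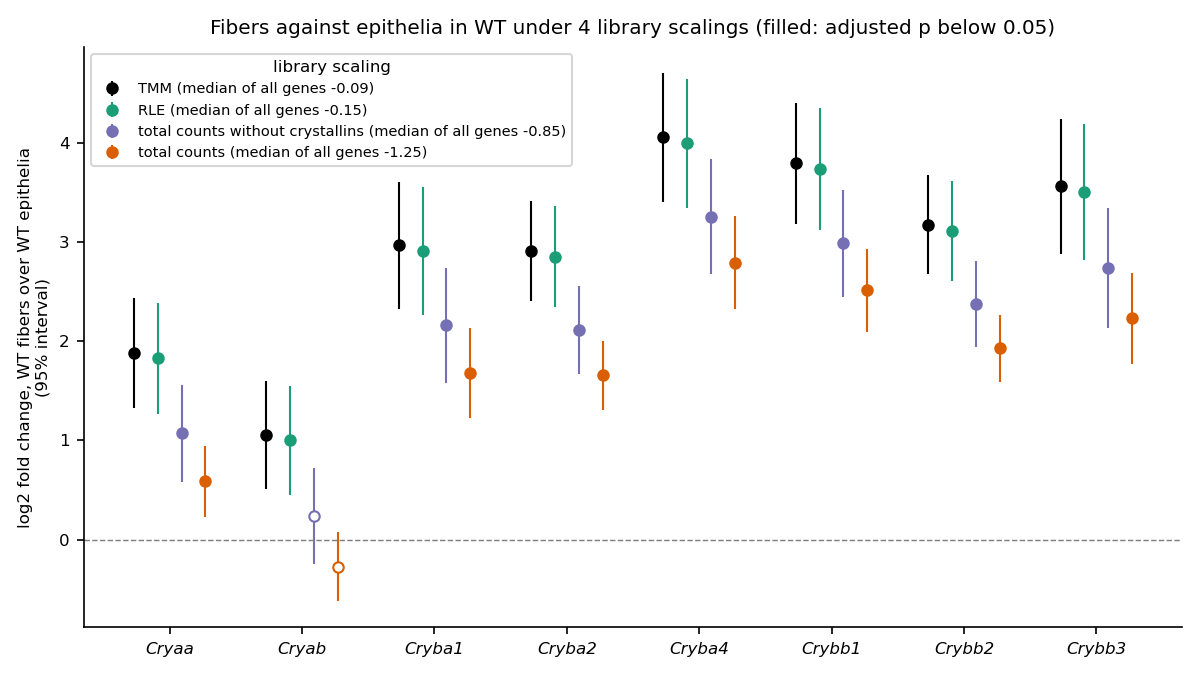
Log2 fold change of WT fibers over WT epithelia with its 95% interval (y axis) for each gene (x axis) under 4 library scalings (colours); filled points have an adjusted p below 0.05. Every gene other than Cryab stays above 0 under all 4, and Cryab runs from 1.06 under TMM to -0.27 on plain totals.

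Ratios within a library avoid that scaling. Cryaa counts per Cryab count were 3.86 ± 0.317 in WT epithelia and 7.11 ± 0.678 in WT fibers (SD, n = 4), 3.23 ± 0.414 and 7.65 ± 0.216 for LEGSKO, and 3.24 ± 0.495 and 8.02 ± 0.250 for LEGSKO+BSO. Epithelial libraries reached at most 4.18 and fiber libraries at least 6.11. Beta crystallins took 33.2% ± 1.40 of the counts of the 8 genes in WT epithelia and 59.0% ± 2.88 in WT fibers, while basic per acidic beta counts were 1.63 ± 0.205 and 1.74 ± 0.0975. In WT the share of Cryaa was 53.0% in epithelia and 35.9% in fibers, and that of Cryab 13.8% and 5.11%. Each of the 6 beta genes had a larger share in fibers, from 17.7% to 30.9% for Crybb2 and from 1.74% to 5.58% for Cryba4. All 24 comparisons of a share between tissues (8 genes in 3 conditions) had groups that did not overlap, each at the smallest exact permutation p of 0.0286 and an adjusted value of 0.0286. The 8 shares of a library are parts of 1 sum, so lower alpha shares raise the beta shares, and the 24 are not separate observations. The adjusted value equals the unadjusted one because all 24 have the same p. Lens fiber markers reach 9256 CPM in epithelial libraries, a sum that includes the 1 listed gene called lower in fibers. The part of these markers in the epithelial crystallin counts was not tested.

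An interaction term in the 24-library fit asked whether a condition's change differed between the tissues. In LEGSKO 0 of 8 members were called, where 0.103% of all genes were, and in LEGSKO+BSO 0 of 8, where 0.276% were (lowest adjusted p by edgeR 0.836 and 0.669; 0 members at an unadjusted p below 0.05 and 0 by DESeq2). Without WT fibers 1 all 8 interaction terms were above 0 in both, with medians of 0.51 and 0.61, and 0 members were called, where 0.292% and 0.596% of all genes were. The highest were those of Crybb3, 0.95 ± 0.30 SE in LEGSKO (adjusted p = 0.206) and 0.93 ± 0.30 SE in LEGSKO+BSO (0.148).

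The 8 genes varied together from library to library. Over the 12 epithelial libraries the Spearman rho of a member to the mean of the other 7 ran from 0.86 (Cryba4) to 0.993 (Crybb3), and over the 12 fiber libraries from 0.566 (Crybb3) to 0.958 (Cryba2). These points share libraries and scaling and are given as a description. In epithelia the mean log2 CPM of the 8 was highest in WT 1 (13.08), LEGSKO 1 (12.90) and LEGSKO+BSO 2 (12.78), 1 library of each condition, and lowest in LEGSKO+BSO 4 (11.80) and LEGSKO 3 (11.99). Summed lens fiber markers, 1 of them called lower in fibers, did not follow that order. WT 1 had 8459 CPM, LEGSKO 1 had 7972 and LEGSKO+BSO 2 had 9010. The sum was highest, 9256, in LEGSKO+BSO epithelia 3, where the crystallin mean ranked 8 of 12. Summed corneal markers ran the other way at the high end: WT 1 (837 CPM), LEGSKO 1 (2244) and LEGSKO+BSO 2 (2939) were each the lowest of their group for them. At the low end LEGSKO+BSO 4, lowest in crystallins, had the most of the 12 (4051). LEGSKO 3 did not stand out in this way: it had 2517, below LEGSKO 4 at 3179. The part of those markers in the crystallin levels was not tested. The 5 genes outside the family most like the members' mean were Amph (rho 0.958), Zfp385a, Armh3, Cd24a and Carhsp1 (0.951 each) in epithelia. In fibers they included Crygs, which encodes gamma S-crystallin, and the ribosomal protein gene Rpl6 (0.958 each), Smim26 (0.937) and the tubulin gene Tubb6 (0.923).

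Other genes with crystallin names (16 listed, 14 tested in epithelia and 13 in fibers) also had 0 called in the 6 within-tissue comparisons, where 0.0298% to 5.52% of all genes were. The name alone does not make each of the 16, Cryzl1 included, a lens crystallin, and the medians and counts below are over the whole list. Their median log2 fold changes were -0.55, -0.80 and -0.19 in epithelia and -0.50, -1.02 and -0.44 in fibers, in the order used above. The fiber medians without WT fibers 1 were 0.36, 0.13 and -0.43, so both comparisons with WT turned. In that setting 6 of 13 rose in LEGSKO, where 2.61% of all genes were called higher. They were the gamma crystallin genes Cryga, Crygb, Crygc, Crygd, Cryge and Crygf, from 1.56-fold (Crygb, adjusted p = 0.02 by edgeR) to 1.81-fold (Crygc, 0.0049). These genes are close copies of each other, and how reads they share were counted is not stated, so their values are not separate. In LEGSKO+BSO against WT only Grifin rose (1.28-fold, 0.0183), where 4.65% were called higher. Against LEGSKO fibers 3 of the 13, Cryga, Crygb and Crygf, fell in LEGSKO+BSO, by 1.53-fold to 1.59-fold (adjusted p from 0.0357 to 0.0462), where 0.331% of all genes were called lower. These genes are named after their values were seen. In WT fibers against epithelia 9 of 14 were higher and 2 lower under TMM, where 37.0% of all genes were called higher and 39.4% lower. On plain totals 8 were higher and 5 lower, where 12.7% and 73.7% were. Crygs was higher 8.38-fold (adjusted p = 8.12e-12 by edgeR) and the galectin-related crystallin gene Grifin 5.70-fold (3.85e-11). Cryzl1 was 2.16-fold higher under TMM (1.63e-11), with a log2 value of -0.055 on plain totals. In LEGSKO fibers Crybg3 was 2.19-fold lower than in epithelia.

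The list of other small heat shock proteins held 8 genes with Hspb symbols, of which 7 were tested. The symbol alone does not make each of them, Hspb11 included, a relative of the alpha crystallins. In WT fibers 4 were higher and 0 lower than in epithelia under TMM, and 4 higher and 3 lower on plain totals, beside the same shares of all genes (37.0% and 39.4%, then 12.7% and 73.7%). Among the higher were Hspb1 (90.2-fold, adjusted p = 1.86e-15 by edgeR), Hspb11 (6.23-fold) and Hspb3 (7.41-fold). In LEGSKO+BSO Hspb6 was 4.19-fold higher in fibers. Hspb2, whose annotated span overlaps Cryab, rose 1.28-fold in LEGSKO+BSO epithelia, from 42.3 ± 3.26 to 54.2 ± 2.63 CPM (SD, n = 4; adjusted p = 0.0187), where the log2 fold change of Cryab was -0.21. That call was lost without WT epithelia 2 or 3 or LEGSKO+BSO epithelia 1 or 4 (adjusted p from 0.0502 to 0.0559). Hspb8, a cochaperone of protein quality control, fell 3.99-fold in LEGSKO+BSO fibers, from 4.06 ± 1.96 to 1.00 ± 0.523 CPM (adjusted p = 0.0122). Hspb2 and Hspb8 were each the only 1 of 7 called in their comparison, where 1.17% and 5.52% of all genes were. The remaining 4 within-tissue comparisons had 0 of 7 called, where 0.0298% to 1.64% of all genes were.

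Lens fiber genes (21 tested) had at most 1 member called in each direction within a tissue, where 0.0298% to 5.52% of all genes were called. Caprin2, an RNA-binding protein gene, fell 1.5-fold in LEGSKO fibers (adjusted p = 0.0061 by edgeR) and 1.76-fold in LEGSKO+BSO fibers (0.000285), from 202 ± 28.8 CPM in WT to 135 ± 8.45 and 115 ± 10.9 (SD, n = 4). It also fell 1.41-fold in LEGSKO epithelia (adjusted p = 0.042), a call lost without WT epithelia 1, 2 or 3 or LEGSKO epithelia 2, 3 or 4 (adjusted p from 0.0517 to 0.137), and its LEGSKO fiber call was lost on plain totals (0.133). Hopx, a homeodomain gene, rose 1.33-fold in LEGSKO fibers (adjusted p = 0.012) and 1.23-fold in LEGSKO+BSO fibers (0.0294). Those calls were lost in 1 fit over 24 libraries (0.214 and 0.285) and on plain totals (0.149 and 0.094), the first also without LEGSKO fibers 3 (0.065) and the second without WT fibers 2, 3 or 4 or LEGSKO+BSO fibers 1, 2 or 3 (0.054 to 0.0852). Against epithelia, 19 of the 21 were higher and 2 lower in WT fibers under TMM (37.0% and 39.4% of all genes), and 18 and 2 on plain totals (12.7% and 73.7%). Among the higher were Lctl (45.7-fold), Bfsp2 (21.8-fold) and Tmod1 (5.87-fold).

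Genes listed as crystallin regulators (26 listed, 25 tested in epithelia and 24 in fibers) had 1 member higher and 0 lower in LEGSKO+BSO than in WT epithelia, where 1.17% of all genes were called. It was Foxe3, a factor of the undifferentiated lens epithelium, which rose 1.97-fold from 244 ± 49.9 to 481 ± 40.8 CPM (SD, n = 4; adjusted p = 0.00765 by edgeR, 0.102 when all 24 libraries share 1 fit). In LEGSKO+BSO against LEGSKO epithelia 2 of 25 were called, both higher, where 0.722% of all genes were called. Over LEGSKO epithelia Foxe3 rose 1.99-fold (adjusted p = 0.0165, lost in 1 fit over 24 libraries at 0.0728 and without LEGSKO epithelia 2 or 4 or LEGSKO+BSO epithelia 1, 3 or 4 at 0.0511 to 0.0668) and Mafg, a small Maf factor, 1.3-fold (0.0339, lost with the replicate block at 0.069 and without any LEGSKO library or LEGSKO+BSO epithelia 1, 3 or 4 at 0.053 to 0.118). The interaction term of Mafg was -0.50 in LEGSKO+BSO (adjusted p = 0.0455), a call lost without any LEGSKO+BSO fiber library, WT epithelia 1, 2 or 3, WT fibers 2, 3 or 4, or LEGSKO+BSO epithelia 1, 3 or 4 (0.0558 to 0.0909). It was also lost on plain totals (0.577), with totals that leave out crystallins (0.124), with no filter (0.053) and with the replicate block (0.0662), and was made under 5 of 22 alternatives. In LEGSKO+BSO fibers 3 of 24 were higher and 1 lower, where 5.52% of all genes were called in either direction. Among the higher were Rxra (1.35-fold, adjusted p = 0.000913) and Pitx3 (1.44-fold, 0.0137), and Gata3 fell 2.06-fold (0.0179). The Gata3 call was lost without LEGSKO+BSO fibers 3 (0.0542), and all 3 were lost on plain totals (0.0657, 0.0659 and 0.0975). In LEGSKO fibers 1 of 24 was called, where 1.64% of all genes were. It was Tfap2a, which rose 1.32-fold (0.00489), a call lost on plain totals (0.424). In WT fibers 8 of 25 were higher and 11 lower than in epithelia under TMM, against 37.0% and 39.4% of all genes, and 2 higher and 20 lower on plain totals, against 12.7% and 73.7%. Under TMM Hsf4, a heat shock factor needed for lens crystallin expression, was 23.8-fold higher, Rxra, the retinoid X receptor gene, 2.93-fold higher and Pax6, the eye selector gene, 4.04-fold lower.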

How the data were processed

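RNA was measured in 24 mouse lens libraries, 4 in each of 6 groups taken from the titles. The authors deposited raw counts per Entrez gene in 1 table. The submitters' processing notes name DESeq, TopHat, bcl2fastq and CASAVA 1.8, and build mm10 (GRCm38). For the counting tool, annotation and strand setting, nothing is given in the sources used here. Symbols came from a RefSeq table of that build, and 81 unmatched identifiers (0.914% of counts) stayed in the tests. Lengths came from GENCODE M21.

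Tests on the deposited counts used edgeR 4.0.16 (R 4.3.3): TMM scaling, filterByExpr (minimum count 10, minimum total 15), quasi-likelihood F tests, two-sided, Benjamini-Hochberg adjustment over all genes, threshold 0.05. Conditions were compared within a tissue (12 libraries sharing 1 dispersion), and tissues and interactions over 24 libraries. CPM are counts scaled to the TMM-adjusted library total. Standard errors and 95% intervals come from the fold change and its F statistic. Gene shares were compared by exact permutation, and the shares between tissues were added after seeing the data. The members, gene lists, motifs and tests were chosen with earlier results of these data known. Within each list the 3 genes with the smallest adjusted p were named where called, and genes most like the members were the 5 with the highest Spearman rho at a mean log2 CPM of at least 1. Some genes that these rules name are not reported here. Counts of pairs of libraries within a group differed by more than sampling noise (chi-square per degree of freedom 5.27 to 345).

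The alternatives were DESeq2 1.42.0, its size factors in edgeR, totals without crystallin genes, no filter, a fit over 24 libraries, a replicate block and leaving out each library. Scaling to plain totals and changes relative to the median gene were chosen after seeing the data. On simulated counts the fit recovered 61.2%, 83.3% and 96.8% of genes changed 1.5-, 2- and 4-fold in LEGSKO against WT epithelia (14916 genes, 3 unchanged genes called). In fibers it recovered 64.2%, 80.3% and 92.3% (13327 genes, 15 called). The changed genes were drawn at random, so these rates do not tell which change in a member would be called. Cryba1, fitted 1.71-fold lower in LEGSKO+BSO than in WT epithelia, was not called (adjusted p = 0.197 by edgeR).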

Additional observations from a re-analysis of the deposited data

Results flagged for a closer look

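In 48 combinations of a member and a group, 11 had 1 library far from the other 3, where chance alone gives about 1 in 20. Of these, 8 were WT fibers 1, the highest of its group for every member: Cryaa 193017 CPM, Cryab 31567, Cryba1 52848, Cryba2 26520, Cryba4 25838, Crybb1 17160, Crybb2 131078 and Crybb3 19525. They are 1 library, not 8 observations. Against the mean of WT fibers 2 to 4 it was 1.84 times higher for Crybb2 and 3.06 times for Crybb3, the ends of the range over the 8 members, on scaled CPM. The other 3 were Crybb2 in WT epithelia 4, the lowest of its group at 17952 CPM, Crybb3 in WT epithelia 1, the highest at 2765 CPM, and Cryaa in LEGSKO+BSO fibers 2, the highest at 93269 CPM.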

How the results depend on the processing

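The counts of members called were 0 within tissues and 8 between tissues, and stayed within 1.5 times of these under every alternative with 1 exception. Without WT fibers 1, Crybb3 was called in LEGSKO and in LEGSKO+BSO against WT fibers, so leaving out 1 library gave 0 to 1 member in both. Leaving out 1 library turned the sign of these log2 fold changes, given as their lowest to highest value: for LEGSKO against WT epithelia, Cryab -0.165 to 0.051; for LEGSKO+BSO against LEGSKO epithelia, Cryaa -0.358 to 0.081, Cryba2 -0.412 to 0.069, Crybb1 -0.449 to 0.051, Crybb3 -0.291 to 0.111. For LEGSKO against WT fibers they were Cryaa -0.378 to 0.215, Cryab -0.579 to 0.179, Cryba1 -0.368 to 0.201, Cryba2 -0.212 to 0.186, Cryba4 -0.255 to 0.181, Crybb1 -0.431 to 0.096, Crybb2 -0.304 to 0.056, Crybb3 -0.231 to 0.526, and for LEGSKO+BSO against WT fibers Cryaa -0.526 to 0.07, Cryba1 -0.558 to 0.013, Cryba2 -0.316 to 0.083, Cryba4 -0.39 to 0.048, Crybb1 -0.514 to 0.016, Crybb3 -0.348 to 0.411. For the interaction in LEGSKO they were Cryaa -0.09 to 0.54, Cryab -0.514 to 0.28, Cryba1 -0.076 to 0.624, Cryba4 -0.169 to 0.393, Crybb2 -0.109 to 0.314, and in LEGSKO+BSO Cryaa -0.117 to 0.513, Cryab -0.592 to 0.192, Crybb2 -0.004 to 0.413. On plain totals the sign turned in LEGSKO against WT fibers for Cryba2 (0.036), Cryba4 (0.012) and Crybb3 (0.159), in LEGSKO+BSO against WT fibers for Cryba2 (0.014) and Crybb3 (0.127), and between tissues for Cryab (-0.273, -0.396 and -0.424 in WT, LEGSKO and LEGSKO+BSO) and Cryzl1 (-0.055 in WT and -0.074 in LEGSKO+BSO). With totals that leave out crystallins it turned for Crybb3 in LEGSKO fibers (0.009) and for Cryab between tissues in LEGSKO (-0.005) and LEGSKO+BSO (-0.068). The cause was not tested.

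The replicate numbers gave no clear pairing between conditions of a tissue: deviations of same-numbered libraries correlated from -0.267 to 0.272 in epithelia and -0.169 to 0.163 in fibers. Over both tissues 60 same-numbered pairs ran from -0.249 to 0.248 and 180 others from -0.314 to 0.279. Epithelia and fibers of the same condition and number were not looked at separately. Whether they share animals therefore stays unknown, and the tissue tests treat them as unpaired. With the number as a replicate block 0 members were called within tissues and 8 between them, and Crybb3 in LEGSKO against WT fibers turned to 0.09.

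Counts of all genes called moved by over 1.5 times. In epithelia edgeR called 127 genes in LEGSKO against WT (40 without WT epithelia 2, 447 by DESeq2), 177 in LEGSKO+BSO against WT (41 without LEGSKO+BSO epithelia 1, 565 by DESeq2) and 109 in LEGSKO+BSO against LEGSKO (0 without LEGSKO epithelia 2, 679 by DESeq2). In fibers it called 220 (61 without LEGSKO fibers 3, 591 without WT fibers 1), 742 (173 on plain totals, 1138 by DESeq2) and 4 (1 without LEGSKO fibers 2, 81 by DESeq2). The interactions had 16 (4 on plain totals, 78 by DESeq2) and 43 (12 without LEGSKO+BSO epithelia 4, 302 by DESeq2). Each member had at least 15804 counts in every library.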

Other observations

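Hspb2 and 2310030G06Rik, which overlap Cryab, had low counts beside those of Cryab. Hspb2 had 42.3 ± 3.26 CPM in WT epithelia and 21.3 ± 2.25 in WT fibers, and 2310030G06Rik 80.7 ± 11.1 and 20.3 ± 2.35 (SD, n = 4), with CPM scaled within each tissue, so that the tissues are not compared here. Beside the chromosome 5 members, Tpst2, a tyrosylprotein sulfotransferase gene next to Crybb1, had 35.4 ± 3.70 CPM in WT epithelia and 6.18 ± 1.15 in WT fibers, and 2900026A02Rik next to Crybb3 had 72.4 ± 3.39 and 9.38 ± 0.921. Nufip2, 647 bases from Cryba1, had 169 to 187 CPM in WT epithelia and 92.4 to 102 in WT fibers.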
